A study of Mus musculus with 2 samples.

Results

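Kif14, the kinesin disrupted in the laggard (lag) mouse, works at the end of cell division together with a small set of proteins that build the contractile ring, the central spindle and the midbody. The 9 genes Cit, Prc1, Anln, Ect2, Racgap1, Aurkb, Incenp, Birc5 and Cep55 encode such partners, and kinesins were left out. They were picked by name for these roles, and 22 probe sets of the array were paired with 1 of them alone, of 45101 probe sets and 18194 genes in all. RNA of the cerebrum at postnatal day 14 had been compared between lag mutant and wild-type littermate mice, with 1 array (Affymetrix Mouse Genome 430 2.0) per genotype. The lag allele is a recessive splice acceptor mutation of Kif14 that arose on a mixed strain background and was backcrossed to C57BL/6J. Neither the labels nor the methods say how many mice were used for a sample. No signal has a replicate, so every fold below describes these arrays, and no p-value is given.

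When a cell divides, the small GTPase RhoA is switched on at the equator by Ect2, which is held there by the centralspindlin complex that contains Racgap1. RhoA then drives assembly of a ring of actin and myosin, organised by anillin (Anln) and by citron kinase (Cit). Prc1 bundles the microtubules of the central spindle, Aurkb, Incenp and Birc5 belong to the chromosomal passenger complex that controls the timing, and Cep55 recruits the membrane-cutting machinery to the midbody. In human cells KIF14 binds both citron kinase and PRC1. At postnatal day 14 most neurons have left the cell cycle and the remaining divisions are largely those of glial precursors. Some of these proteins have a second role in cells that do not divide: a citron form without the kinase domain sits at synapses, and anillin joins septins in filaments of central myelin.

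Most mitotic genes are switched on late in the cell cycle through CCAAT boxes and a short element called the cell cycle genes homology region. Promoter sequences from RefSeq (GRCm38.p6), from 250 bases before to 50 after the start, were listed for 7 of the 9 genes, and Aurkb and Incenp had none. On either strand, CCAAT was found in 3 of the 7, Prc1, Ect2 and Racgap1. The homology region, searched as TTTGAA and TTCGAA, was found in 5 of the 7, those 3 genes with Anln and Cep55. Of all 32851 listed promoter windows of the same length, 37.4% held CCAAT, 19.2% the homology region and 7.52% both. These shares are per window, whereas a gene was counted if any of its listed starts held the element. Prc1, Ect2 and Cep55 had 2 listed starts each, and both starts held the elements counted. The E2F sites GCGCGAAA and GCGGGAAA were in none of the 7 and in 1.37% of all windows. The 120 bases before the start are shown for the 3 genes with both elements. They are also shown for Cit, which like Birc5 had neither, and for Kif14, which had both. Where a gene had several listed starts, the start with the most whole matches in its stretch was shown, or the earlier listed at a tie. Capitals mark the matches, ATTGG being CCAAT on the opposite strand. The first is chr7:80294356-80294475 (plus strand, the second listed start).
Prc1: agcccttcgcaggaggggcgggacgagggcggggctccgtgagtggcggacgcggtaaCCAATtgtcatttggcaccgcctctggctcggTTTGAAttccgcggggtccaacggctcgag
The next is chr3:27153879-27153998 (minus strand, the first of its listed starts).
Ect2: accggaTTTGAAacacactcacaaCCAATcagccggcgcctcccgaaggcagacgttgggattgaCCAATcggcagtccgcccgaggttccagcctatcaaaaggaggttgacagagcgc
Then follows chr15:99651657-99651776 (minus strand), where the homology region lies 6 bases after the start and so outside the stretch.
Racgap1: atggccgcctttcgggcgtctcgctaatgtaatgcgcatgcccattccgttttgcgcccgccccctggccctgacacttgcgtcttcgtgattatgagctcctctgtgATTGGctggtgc
Both comparison stretches follow, chr5:115845536-115845655 and chr1:136467728-136467847 (plus strands).
Cit: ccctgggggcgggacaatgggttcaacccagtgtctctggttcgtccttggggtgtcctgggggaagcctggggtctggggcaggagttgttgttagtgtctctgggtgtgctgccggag
Kif14: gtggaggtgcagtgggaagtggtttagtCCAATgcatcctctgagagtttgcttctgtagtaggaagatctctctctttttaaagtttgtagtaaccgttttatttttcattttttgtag
In Prc1 the CCAAT box stood 62 bases and the homology region 30 bases before the start, and in Ect2 a homology region at 114 bases lay before CCAAT boxes at 96 and 55 bases. Ect2 also had a CCAAT box 2 bases and a homology region 40 bases after that start, outside the stretch shown. In Kif14 a homology region lay 228 bases before the start, outside the stretch shown. A match is a string of letters in this window, and whether any factor binds it was not measured here.

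None of the 9 genes differed 2-fold between the arrays. Taking each gene's probe set with the highest mean signal, 4 genes had a higher and 5 a lower signal in the mutant, where 51.9% of all measured genes were higher. After quantile normalization of the arrays the split was 6 higher and 3 lower, so the balance of directions depends on the scaling. None reached 1.5-fold, which 7.79% of all genes did, and all 9 lay within 1.3-fold, a limit chosen after their values were seen. Their log2 ratios ran from -0.24 for Incenp to 0.33 for Ect2, with a median of -0.01, against a median of 0.01 over all 13897 genes above the background level on at least 1 array. Of those genes 1.02% were at least 2-fold lower in the mutant, 0.748% were at least 2-fold higher and 81.7% lay within 1.3-fold. With so few genes past 2-fold anywhere, a count of 0 of 9 is close to this background and says nothing particular about cytokinesis genes. The background level was a signal of 49.2, the 95th percentile of 149 probe sets for olfactory, vomeronasal and taste receptors, keratin-associated proteins and similar genes.

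The mutated gene itself could not be followed. Kif14 has 1 probe set to itself, with a signal of 0.733 in the mutant and 6.85 in the wild-type. Both lie far under the background level, so no fold is given and the signal does not check the genotype labels. Its partners were all measurable by at least 1 probe set each. Of their 22 probe sets, 16 were above the level on both arrays, 2 on 1 array and 4 on neither.

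**Figure D1:**
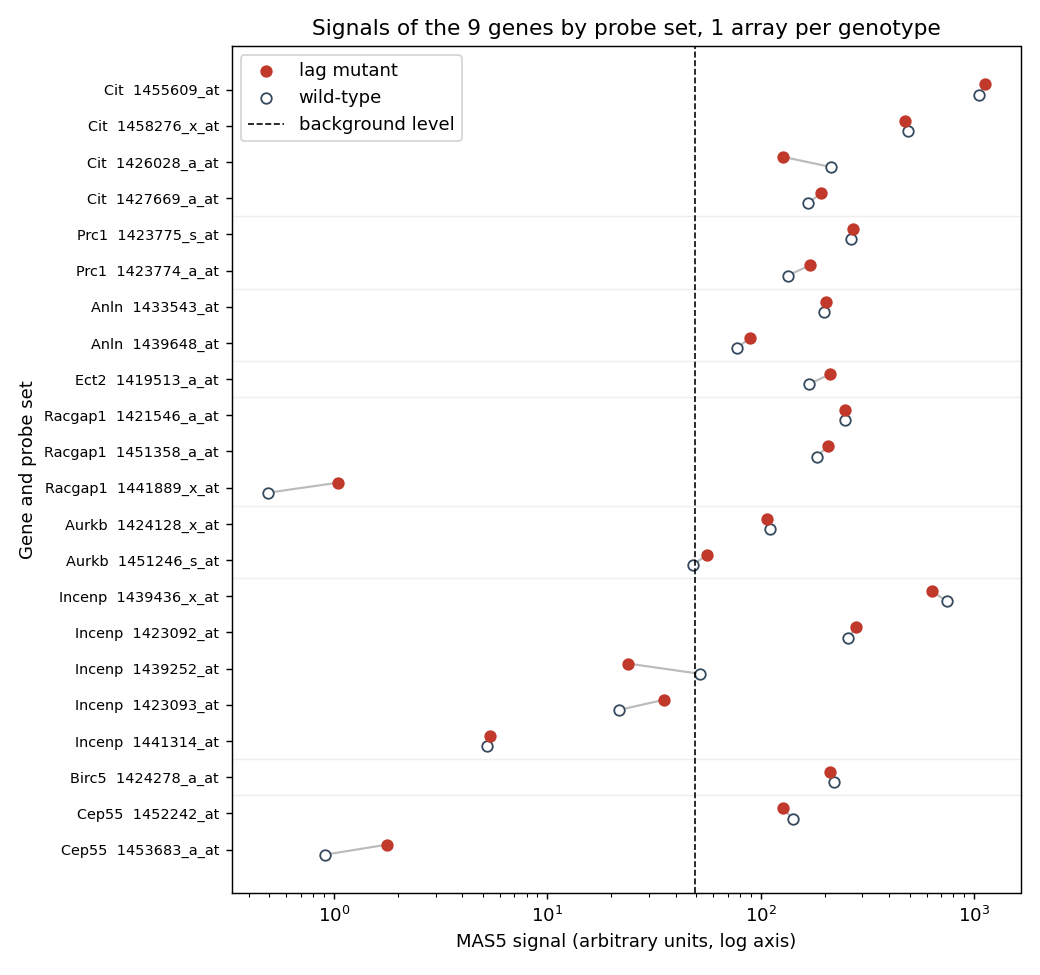
MAS5 signal (arbitrary units, log axis) of every probe set of the 9 genes on the lag mutant array (filled) and the wild-type array (open), with the background level of 49.2 as a dashed line. Most pairs nearly coincide; the widest gap above the level on both arrays is that of Cit probe set 1426028_a_at, at 127 in the mutant and 213 in the wild-type.

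Citron, the kinase that binds Kif14, is the partner with the most informative probe sets, and they did not move together. The brightest, 1455609_at, had a signal of 1121 in the mutant and 1049 in the wild-type, 1.07-fold higher. Probe set 1458276_x_at had 474 in the mutant and 490 in the wild-type, and 1427669_a_at had 192 in the mutant and 167 in the wild-type. Both of these differed by less than 1.15-fold. Only 1426028_a_at stood apart, with 127 in the mutant and 213 in the wild-type, 1.68-fold lower. It was the 1 probe set, of 18 above the level, that differed at least 1.5-fold once signals under background were raised to it, whereas 9.65% of 25222 probe sets across the array did. The sources used here do not say which probe sets read the kinase form and which the synaptic form without the kinase domain, so the split among them is not assigned to a form. Where the probe sets are averaged on the log2 scale, Cit stood at -0.12, against 0.09 by the brightest.

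Prc1, the microtubule bundler of the central spindle, was level by its brighter probe set, with 269 in the mutant and 264 in the wild-type. Its other probe set had 170 in the mutant and 134 in the wild-type, 1.27-fold higher. The brighter one is of the _s design, which Affymetrix uses for probes shared with other transcripts, and the weaker one of the _a design, for probes shared by transcripts of 1 gene. Both were higher in the mutant, by log2 ratios of 0.03 and 0.35.

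Anillin is the member with the clearest second role, as a part of myelin. Probe set 1433543_at had a signal of 203 in the mutant and 198 in the wild-type, and 1439648_at had 89.4 in the mutant and 77.6 in the wild-type. Both were slightly higher in the mutant, 1.02-fold and 1.15-fold. Markers of mature oligodendrocytes on the same arrays were far lower: 9 of 9 measured were at least 2-fold lower in the mutant, with a median log2 ratio of -2.54 and a summed signal of 2393 in the mutant and 31880 in the wild-type. Mbp, the major myelin basic protein, had 444 in the mutant and 18812 in the wild-type. Anillin thus did not follow the myelin genes on these arrays. In bulk tissue, fewer cells of a type and less RNA per cell cannot be told apart.

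The septins that join anillin in myelin, all 4 of them, had lower signals in the mutant, though none by 2-fold, and after quantile normalization Septin7 was level at 0.01. Septin2 had 1392 in the mutant and 1730 in the wild-type, and Septin4 had 1005 in the mutant and 1227 in the wild-type. Septin7 differed little, with 10754 in the mutant and 10905 in the wild-type. Septin8 depended on the probe set: its brightest had 1333 in the mutant and 1363 in the wild-type, while 1426801_at had 345 in the mutant and 527 in the wild-type and 1426802_at had 137 in the mutant and 231 in the wild-type. Their median log2 ratio was -0.16, against 0.00 for the 10 measured septins as a group. Septin9 was the highest of those 10, with 1149 in the mutant and 761 in the wild-type.

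Of the genes that switch RhoA on at the equator, Ect2 was somewhat higher in the mutant and Racgap1 level. Ect2, the exchange factor that activates RhoA, had the highest log2 ratio of the 9 genes. Its single probe set had a signal of 212 in the mutant and 168 in the wild-type, 1.26-fold higher, and 39.3% of the 4633 genes of the dimmest tertile differed at least as far. Racgap1, the centralspindlin subunit that binds Ect2, had 248 in the mutant and 250 in the wild-type by its brightest probe set, and 206 in the mutant and 183 in the wild-type by another. Its log2 ratio was -0.01 by the brightest, 0.08 by the mean over all probe sets and 0.04 after quantile normalization. Its probe set 1441889_x_at was under background on both arrays, with 1.05 in the mutant and 0.490 in the wild-type, and no fold is given for it.

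In the chromosomal passenger complex, signals of the 3 genes were slightly lower in the mutant by the brightest probe sets, but after quantile normalization Aurkb was higher, at a log2 ratio of 0.04, and Birc5 level at -0.00. Aurkb, its kinase, had 107 in the mutant and 111 in the wild-type by 1424128_x_at. Its other probe set lay at the edge of detection, with 55.9 in the mutant and 48.0 in the wild-type, the second value under the level. Birc5, or survivin, which anchors the complex, had 212 in the mutant and 220 in the wild-type by its single probe set. Incenp, the scaffold, had 633 in the mutant and 750 in the wild-type by 1439436_x_at, 1.18-fold lower. That probe set is of the _x design, which can bind other transcripts. By the unique probe set 1423092_at, Incenp had 281 in the mutant and 258 in the wild-type, so its direction turned with the probe set. A dim one, 1439252_at, had 24.0 in the mutant and 51.7 in the wild-type. The wild-type signal barely passed the level, so the fold after raising the mutant signal was at least 1.05. The other two were under background on both arrays, with 35.2 and 5.42 in the mutant and 21.7 and 5.25 in the wild-type.

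Cep55, which brings the abscission machinery to the midbody, had 127 in the mutant and 142 in the wild-type by 1452242_at, 1.12-fold lower. Its second probe set was under background on both arrays, with 1.78 in the mutant and 0.907 in the wild-type.

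**Figure D2:**
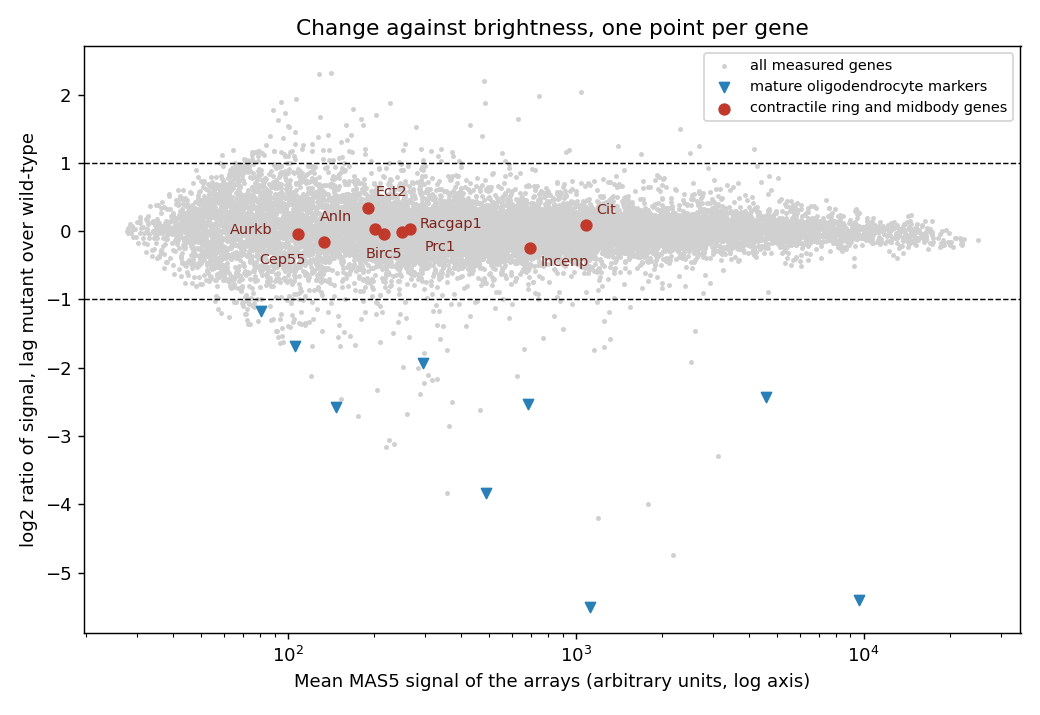
Log2 ratio (lag mutant over wild-type) plotted against mean signal (log axis), 1 point per measured gene; dashed lines mark 2-fold. The 9 genes (red) lie between -0.24 and 0.33, inside the cloud of all genes (grey), while the mature oligodendrocyte markers (triangles) lie at or under -1.18.

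How small a difference these arrays could show depends on brightness. Dim genes scatter more: the log2 ratio had an SD of 0.45 over the dimmest tertile of genes, with mean signals up to 269, of 0.32 over the middle tertile and of 0.27 over the brightest. Of the 9 genes 7 lie in the dimmest tertile, where the central 95% of genes ran from -0.89 to 0.92, and only Incenp and Cit lie above it. The 7 dim genes had log2 ratios from -0.16 to 0.33, well inside that range. A log2 change inside those limits in one of them would not have stood out from genes of like brightness. Between probe sets of 1 gene the SD of the log2 ratio was 0.12 for Anln and for Racgap1, 0.43 for Cit and 0.63 for Incenp, the last including a probe set under background in the mutant.

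Other genes of the contractile ring and furrow likewise differed little. Of 21 measured, none was 2-fold lower or higher. With 1.02% of all genes at least 2-fold lower and 0.748% higher, that count is close to the background. In the mutant 10 had higher and 11 lower signals (14 and 7 after quantile normalization), and the median log2 ratio was 0.00. RhoA itself (Rhoa) was the highest, with 6255 in the mutant and 4993 in the wild-type, though a further probe set had 3901 in the mutant and 3831 in the wild-type. Radixin (Rdx), which links actin to the membrane, was the lowest, with 1648 in the mutant and 2040 in the wild-type. The non-muscle myosin heavy chain Myh10 had 6312 in the mutant and 6553 in the wild-type, and Diaph3, a formin of the ring, had 112 in the mutant and 108 in the wild-type.

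Abscission genes, whose ESCRT proteins Cep55 recruits, also had a median log2 ratio near 0, at -0.02. None of 25 measured, Cep55 among them, differed 2-fold, and 11 were higher and 14 lower. That count too is close to the background of 1.02% of all genes lower and 0.748% higher. Tsg101, which Cep55 binds, had 1659 in the mutant and 1698 in the wild-type. Pdcd6ip (Alix), its other ESCRT adaptor, was the lowest of the list, with 377 in the mutant and 516 in the wild-type. Its other probe sets differed less or the other way: 1449674_s_at had 332 in the mutant and 367 in the wild-type, and 1415937_s_at had 275 in the mutant and 259 in the wild-type. A dim one, 1426184_a_at, had 68.5 in the mutant and 14.8, under background, in the wild-type. Chmp4b, the filament subunit that cuts the bridge, had 8270 in the mutant and 9479 in the wild-type.

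Among 23 other central spindle and mitotic kinase genes none differed 2-fold, again close to the share of all genes. Their median was 0.01, with a wider spread than the ring genes, from -0.63 to 0.80. At 1.5-fold 5 of the 23 differed, 2 lower and 3 higher, where 7.79% of all genes did so. Several of these genes are dim, and dim genes scatter more. At the stricter background of 157, 14 of the 23 were still measured, against 20 of the 21 ring genes. The part of brightness in the wider spread was not tested. Cdca8 (borealin), the remaining subunit of the passenger complex, had 362 in the mutant and 376 in the wild-type. Plk1, the kinase that primes Ect2 binding, had 97.1 in the mutant and 146 in the wild-type, and Bub1, a checkpoint kinase, had 66.1 in the mutant and 102 in the wild-type. Psrc1, a spindle protein, was higher at 372 in the mutant and 213 in the wild-type, but its probe set 1425416_s_at had 98.0 in the mutant and 114 in the wild-type. Map4, a microtubule protein of most cells, had 5492 in the mutant and 3321 in the wild-type by its brightest probe set, and 2842 in the mutant and 2763 in the wild-type by the next. The phosphatase gene Cdc14a had 95.4 in the mutant and 60.8 in the wild-type, 1.57-fold higher. Its probe set 1443184_at went the other way, with 38.7, under background, in the mutant and 51.1 in the wild-type.

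Markers of dividing cells give the setting in which these genes are read. Mki67, present in cycling cells, had 376 in the mutant and 441 in the wild-type, and Top2a 430 in the mutant and 462 in the wild-type. The 5 measured markers summed to 1906 in the mutant and 2081 in the wild-type, with 4 of 5 lower in the mutant and none at 2-fold. Of 24 measured mitotic and replication genes, 10 were higher and 14 lower (13 and 11 after quantile normalization), with a median log2 ratio of -0.03. The 1 of the 24 past 2-fold was Pttg1 (securin), which holds sister chromatids together until anaphase. Its signal was 3401 in the mutant and 1202 in the wild-type, 2.83-fold higher. A second probe set of Pttg1 had 927 in the mutant and 259 in the wild-type, and its dimmest had 64.7 in the mutant and 25.4, under background, in the wild-type. Foxm1, a transcription factor of mitotic genes, had 245 in the mutant and 152 in the wild-type by its brightest probe set, and 66.6 in the mutant and 64.1 in the wild-type by another.

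**Figure D3:**
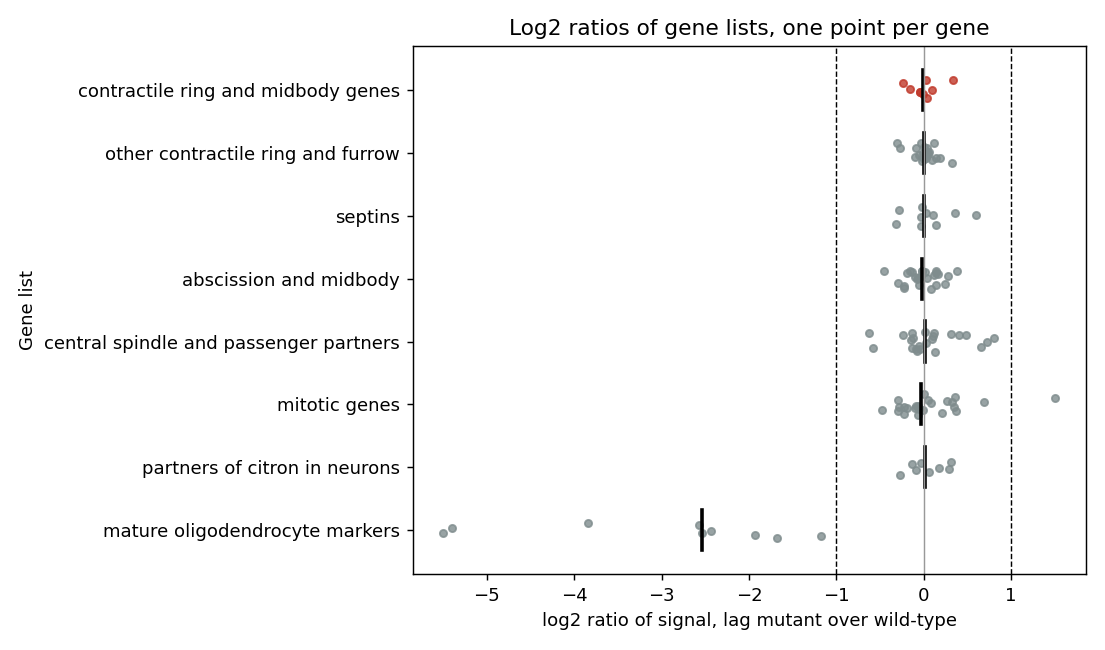
Log2 ratio (lag mutant over wild-type) of the 9 genes (red) and 7 other lists (grey), 1 point per measured gene, with the median as a black bar and 2-fold as dashed lines. The 6 lists of cell division and synaptic genes centre between -0.03 and 0.01, and the mature oligodendrocyte markers at -2.54.

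Because citron also serves at synapses, genes of its postsynaptic partners were read. None of 8 measured differed 2-fold by the brightest probe sets, a count close to the share of all genes, and their median log2 ratio was 0.01. By its probe set of largest decrease Dlgap1 was at -1.05. Dlg4 (PSD-95), which binds the synaptic citron form, had 3243 in the mutant and 3120 in the wild-type. The receptor subunit gene Grin2b had 2257 in the mutant and 1843 in the wild-type by its brightest probe set. Its log2 ratio was -0.11 by the mean over all probe sets and -0.47 by the probe set of largest decrease. Markers fixed for cell types showed cerebral neurons on both arrays, with Snap25 at 16408 in the mutant and 15349 in the wild-type and Neurod6 at 4557 in the mutant and 3338 in the wild-type. Of the 6 neuron markers 3 were higher and 3 lower (4 and 2 after quantile normalization), with a median log2 ratio of 0.02. The cerebrum markers were higher in 4 of 5, with a median log2 ratio of 0.45, the highest being Tbr1, with 1639 in the mutant and 992 in the wild-type. Cerebellar granule cell markers were lower in 4 of 4 (3 of 3 after quantile normalization). Among them Gabra6 had 41.6, under background, in the mutant and 144 in the wild-type, at least 2.92-fold lower. Cbln3 had 22.9, under background, in the mutant and 50.2, barely over the level, in the wild-type, so its direction carries little weight. At the stricter background of 157 only 2 of the 4 were measured, and 0 were at least 2-fold lower. Endothelium markers were lower in 4 of 5 with a median of -0.27. Genes listed as markers of precursors and of young neurons were lower in the mutant while those of microglia were mostly higher. Of the 6 genes listed for oligodendrocyte precursors 6 were lower, 3 of them at least 2-fold. The paper lists Gpr17, Sox10, Olig1 and Olig2 among genes lowered on these arrays, and describes all of those as rising during oligodendrocyte maturation. Their lower signals are thus not specific to precursors. The 6 genes summed to 5739 in the mutant and 12913 in the wild-type. Only 2 passed 2-fold after quantile normalization or by the mean over all probe sets, where Cspg4 was at -0.99 and -0.89. The largest falls by the brightest probe sets were those of Gpr17, at -4.20, and Sox10, at -2.85. By the mean over all probe sets Sox10 was at -1.82. Pdgfra was at -0.76 by its brightest probe set but at -0.27 by the mean over all probe sets. By real-time PCR of whole brain at earlier ages, the paper saw no noticeable difference in Pdgfra or Olig2 mRNA. In the embryonic neocortex it also detected no significant difference in cells stained for Olig2 or for the Pdgfra protein. Newborn neuron markers were lower in 6 of 6, with 13375 in the mutant and 16155 in the wild-type. Microglia markers were higher in 5 of 6, with a median log2 ratio of 0.45, and summed to 8807 in the mutant and 7459 in the wild-type. The part of these cell types in the signals of the 9 genes was not tested.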

How the data were processed

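The authors extracted RNA of postnatal day 14 cerebrum, hybridised 1 array per genotype and calculated signals with MAS 5.0 at default settings and global scaling. The deposited intensities are on a linear scale and come without detection calls. Nothing in the sources states the scaling target or the number of mice per sample. Median intensity was 98.3 on the mutant and 104.5 on the wild-type array.

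The log2 ratio was taken as mutant over wild-type. The platform annotation pairs 34958 probe sets with 1 gene, which were used, 932 with several and 9211 with none. Symbols of 34754 were updated by gene identifier through RefSeq (GRCm38.p6). Each gene was read from the probe set of highest mean signal, and signals under the background level, 1 value for both arrays, were raised to it, so that such a fold is a lower bound. Named are all 9 genes with every probe set, Kif14, and from each list the genes of highest signal, largest difference or known partnership. Rdx, Diaph3, Pdcd6ip, Psrc1, Plk1, Bub1, Foxm1, Septin9, Cdc14a, Tbr1 and Gabra6 were chosen after their values were seen. So were Cbln3, Cspg4, Pdgfra, Gpr17, Sox10, Dlgap1, Shank1 and the probe sets of others. The 9 genes and all lists were chosen with earlier results of these data known. Alternatives changed the probe set, the background level, the normalization and the fold. The scripts were tested on simulated data. Python 3.11.15, numpy 2.4.6 and pandas 2.3.3 were used. The 2 arrays limit the precision.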

Additional observations from a re-analysis of the deposited data

How the results depend on the processing

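No paired analysis was possible because there is 1 array per genotype, and no replicate could be left out. Under each of the 9 alternatives, a fold of 1.5 among them, 0 of the genes of the ring and midbody counted as changed in either direction. Their median log2 ratio ranged from -0.04, reading each gene from its probe set of largest decrease, to 0.07, with the mean over all probe sets. The signs of values this close to 0 carry no weight: 7 of 65 pairs of gene and setting turned sign. Of the 65, 2 moved by more than the SD of genes of like brightness, Cit to -0.75 by its probe set of largest decrease and Incenp to 0.12 with unique probe sets only, which leave 4 of the 9 genes. At a stricter background, the 99th percentile or a signal of 157, Aurkb and Cep55 were no longer measured. Over all genes, those at least 2-fold lower numbered 142 and those higher 104. At the stricter background they were 67 lower and 31 higher, with no level 980 and 1232, by the probe set of largest decrease 300 and 76, and with a fold of 1.5 they were 491 and 592. Under quantile normalization they were 126 and 127. Pttg1 was the 1 mitotic gene at least 2-fold higher; by the largest decrease or unique probe sets only, 0 were, since these choices take its dim probe set, where the wild-type signal is raised to background. Of the 8 postsynaptic genes 1 passed 2-fold downward when read from the largest decrease (Dlgap1, -1.05), and 1 with no level (Shank1, -1.95, its mutant signal being under background).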
